A study of Mus musculus with 8 samples.

Results

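The nuclear genes that encode respiratory complexes I, II, III and V were examined in the transcriptome of DN3 thymocytes that carry or lack a conditional deletion of Sel1l, the adaptor protein of the Hrd1 ubiquitin ligase in ER-associated degradation. Genes were taken by symbol, that is, every name in the deposited expression table that begins with Nduf, Uqcr or Atp5, together with Sdha, Sdhb, Sdhc, Sdhd and Cyc1. This gave 76 of the 16538 genes in the table. Of these, 44 belong to complex I (7 core subunits, 29 accessory subunits and 8 assembly factors), 4 to complex II, 9 to complex III and 17 to complex V, and 2 carry an Nduf name without being complex I subunits (Ndufa4 and Ndufa4l2). The study sequenced RNA of sorted DN3 thymocytes, the third stage that lacks both CD4 and CD8, from C57BL/6 mice aged 6 weeks, with 4 control libraries (genotype Sel1l-f/f) and 4 Sel1l CKO libraries (genotype Sel1l-f/f hCD2cre+). Both groups carry the floxed alleles, and only the Sel1l CKO group is labelled with the human CD2-driven Cre recombinase, which acts from early thymic progenitors onward and in all later T cells. The study's methods state that replicates are independent biological ones unless noted otherwise, and the labels do not tie single libraries to mice.

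Complex I (NADH dehydrogenase) passes electrons from NADH to ubiquinone through a flavin and a chain of iron-sulfur clusters, and complex II (succinate dehydrogenase) passes those of succinate to the same carrier. Complex III (the cytochrome bc1 complex) hands them to cytochrome c, and complex V (ATP synthase) uses the proton gradient that complexes I and III help to build to make ATP. Complex II is encoded wholly in the nucleus, whereas complexes I, III and V also contain subunits encoded by mitochondrial DNA. Thymocytes at the DN3 stage rearrange their T cell receptor beta locus and then, after beta-selection, enter rapid division.

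The table gives RPKM, reads scaled to gene length and to library size, and the reads behind each value were recovered from the steps between low values. Library totals ran from 32900253 to 50401359 reads. The gene length behind the RPKM values runs from the first to the last annotated base with introns included for most genes. RPKM is therefore compared here between libraries, gene by gene or as a sum over a list of genes. In such sums genes with short spans weigh more. Levels of different genes are compared only after rescaling to exon length, whereas filters and cuts on RPKM use the unscaled values. Sel1l itself had 1.83, 1.66, 1.61 and 1.57 RPKM in the controls (replicates 1 to 4) and 0.917, 0.876, 1.32 and 1.23 RPKM in the Sel1l CKO libraries (1 to 4). Every Sel1l CKO library was below every control library, and the log2 fold change was -0.59 ± 0.13 (SE, n = 4 and 4, limma adjusted p = 0.033). Reads over the whole gene are counted, so the loss of a deleted exon is not resolved. In replicates 1 and 2 alone the Sel1l log2 difference was -0.89, and in replicates 3 and 4 alone it was -0.30. All 11 DN3 markers examined were above the expression filter and none passed the test, but 9 of the 11 had a negative log2 fold change, with a median of -0.16. Their summed level ran from 706 to 767 RPKM in controls and from 673 to 683 RPKM in Sel1l CKO, and every Sel1l CKO library was below every control library in Cd3e (log2 fold change -0.31 ± 0.080, SE, limma adjusted p = 0.058) and Cd3g (-0.28 ± 0.083, SE). Ptcra, the pre-T cell receptor alpha chain, was at -0.39 ± 0.13 (SE). Il2ra (CD25) and Tcf7 were the DN3 markers above 0, at 0.15 ± 0.091 and 0.089 ± 0.071 (SE). Of 29 markers of other cell types in the table (B, myeloid, dendritic, epithelial, erythroid, fibroblast, and NK and innate cells), 7 were above the filter, and all 7 had a negative log2 fold change. Epcam was the 1 that passed the test, at 4.02 ± 0.751 RPKM in controls against 2.01 ± 0.178 RPKM after deletion (limma adjusted p = 0.0027, means with SD over 4 libraries here and next). Lyz2 (2.26 ± 0.150 against 1.25 ± 0.406 RPKM) and Cd79b (9.07 ± 0.902 against 6.89 ± 1.26 RPKM) had every Sel1l CKO library below every control library. Gzma, Nkg7, Cd68 and Pdgfrb were the other markers above the filter, whereas Pax5, Csf1r, Itgam, Foxn1, Klrb1c and Alas2 stayed under 0.1 RPKM in every library. The summed level ran from 8.22 to 10.2 RPKM in controls and from 5.32 to 8.22 in Sel1l CKO for B cell markers, from 3.497 to 6.18 and from 1.96 to 3.97 for myeloid, from 3.10 to 4.88 and from 1.95 to 2.27 for epithelial, and from 57.5 to 68.1 and from 44.3 to 53.8 for NK and innate markers. For fibroblast markers it ran from 1.17 to 1.51 RPKM in controls and from 1.02 to 1.39 in Sel1l CKO. For dendritic markers it ran from 0.0179 to 0.0269 and from 0.00428 to 0.0105. Erythroid markers went the other way with overlap, from 0 to 0.651 RPKM in controls and from 0.251 to 1.59 in Sel1l CKO. The part of these differences in the respiratory genes was not tested. Earlier results of these data had set replicates 1 and 2 of each genotype apart from replicates 3 and 4, and the labels name no batch that would account for it. Both sets contain 2 control and 2 Sel1l CKO libraries, and values from each set alone are given beside the pooled ones.

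Over all 8 libraries, most genes of complexes I, II, III and V had a fold change slightly above 0 in Sel1l CKO against control DN3 thymocytes, and a single gene, Ndufa2, passed the test and was higher in Sel1l CKO. The test was limma on log2(RPKM + 0.1) over the 6512 genes with a mean of at least 1 RPKM, adjusted by the Benjamini-Hochberg method, and 69 of the 76 respiratory genes were among them. At an adjusted p under 0.05, 1 of the 69 was higher in Sel1l CKO, where 4.27% of all tested genes were, and 0 were lower, where 1.01% of all tested genes were. At an unadjusted p under 0.05, 6 were higher, against 11.3% of all tested genes, and 1 was lower, against 9.54%. In limma voom on the recovered reads, which also called Ndufa2, it was the only one of 75 respiratory genes, against 2.89% of its 11783 genes called higher. The log2 fold change was above 0 in 60 of the 69 respiratory genes, with a median of 0.080, whereas 52.6% of all tested genes were above 0, with a median of 0.010. Among genes with a mean of at least 5 RPKM, the median was 0.079 for 59 respiratory genes and 0.046 for all 2709 genes. Of these, 52 of the 59 and 61.4% of the 2709 were above 0. Without a filter on low values, 66 of the 76 were above 0. The median SE of a respiratory gene was 0.079 on the log2 scale, about as large as the median fold change.

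**Figure D1:**
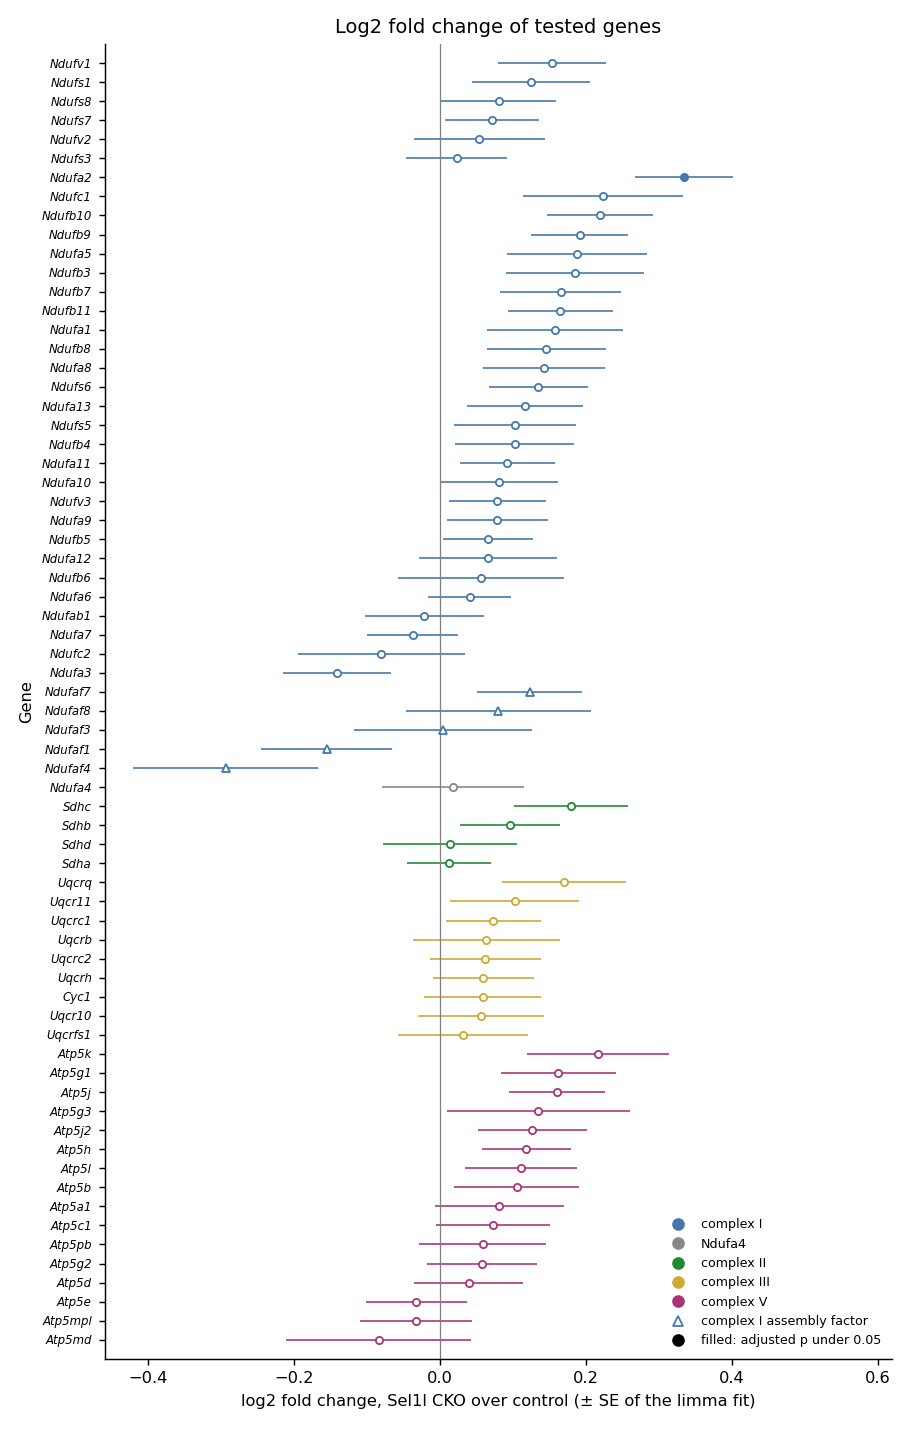
Log2 fold change of Sel1l CKO over control for 68 of the 69 tested genes, grouped by complex (colour), with the standard error of the limma fit as a horizontal line. Only Ndufa2 is filled (adjusted p under 0.05), 59 of the 68 points lie to the right of 0, and Ndufaf4 is the lowest point.

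The difference was not shared by the 4 Sel1l CKO libraries. Taking each gene relative to its control mean, the median over the 69 genes was 0.20 in Sel1l CKO replicate 1 and 0.17 in replicate 2, but 0.014 in replicate 3 and -0.023 in replicate 4. The control libraries had medians between -0.035 and 0.026, so replicates 3 and 4 of Sel1l CKO lay within the control range and replicates 1 and 2 well above it. Over all 2709 genes with a mean of at least 5 RPKM, the median was 0.11, 0.075, 0.0044 and 0.016 in Sel1l CKO replicates 1 to 4. For the 59 respiratory genes among them it was 0.21, 0.17, 0.013 and -0.034. Sel1l CKO replicates 1 and 2 were both above every control library in 53 of the 69 genes, against 28.8% of all tested genes. Sel1l CKO replicates 3 and 4 were both above every control library in 5 of the 69, against 16.6% of all tested genes. Among genes with a mean of at least 5 RPKM, replicates 1 and 2 were both above in 46 of 59 respiratory genes and in 1083 of all 2709. For replicates 3 and 4 the counts were 4 of the 59 and 516 of the 2709. Replicates 3 and 4 of Sel1l CKO were both below every control in 8 of the 69, against 14.6% of all tested genes, and replicates 1 and 2 in 0, against 21.5%.

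**Figure D2:**
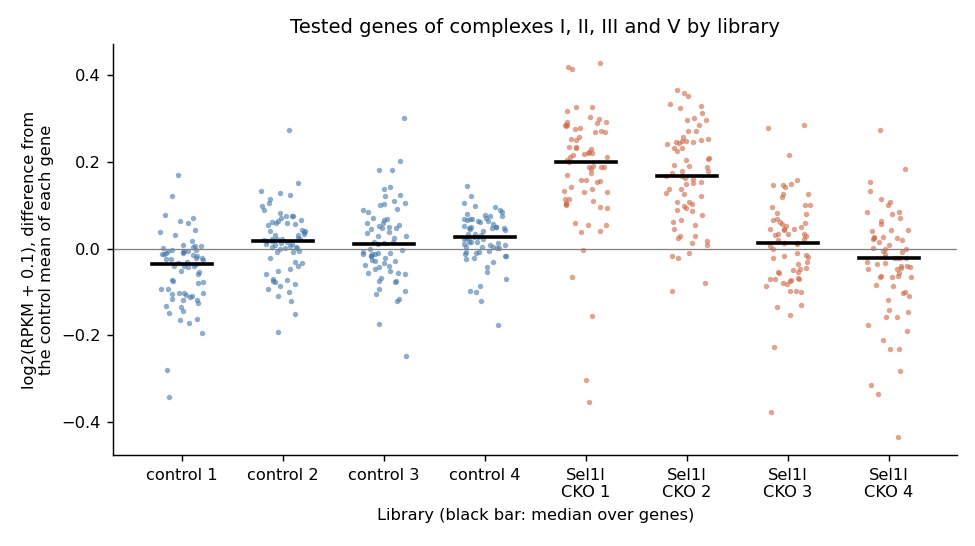
Difference of each of the 69 tested genes from its own control mean on the log2(RPKM + 0.1) scale, 1 point per gene, in the 8 libraries, with the median over genes as a black bar. The bars of Sel1l CKO replicates 1 and 2 stand at 0.20 and 0.17, and those of the other 6 libraries between -0.035 and 0.026.

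Set against the controls of the same replicate numbers, the median log2 fold change was 0.19 within replicates 1 and 2, with 66 of 69 genes above 0. Over all 6512 tested genes it was 0.031 there, with 3546 above 0. Among genes with a mean of at least 5 RPKM it was 0.19 for 59 respiratory genes and 0.092 for all 2709. Of these, 58 of the 59 and 1745 of the 2709 were above 0. Within replicates 3 and 4 the median of the respiratory genes was -0.010, with 28 of 69 above 0. There it was 0.0017 for all tested genes and 0.014 for the 2709. At an adjusted p under 0.05 within replicates 1 and 2, 3 respiratory genes were higher (Ndufa2, Atp5g3 and Atp5k), where 4.58% of all tested genes were, and within replicates 3 and 4 none was, where 3.7% of all tested genes were. At an unadjusted p under 0.05 within replicates 3 and 4, 1 of the 69 was higher, against 9.75% of all tested genes, and 2 were lower, against 7.77%. The same contrast between the sets held for each complex. Within replicates 1 and 2 the median was 0.19 for complex I, 0.17 for complex II, 0.20 for complex III and 0.22 for complex V. Within replicates 3 and 4 it was 0.014, -0.0014, -0.053 and -0.051 in the same order. The sets were seen to differ in the data before, and each holds 2 libraries per genotype. Adjusted p values within a set therefore describe that set only and are not calls for the genotype. The difference between the sets was not tested.

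**Figure D3:**
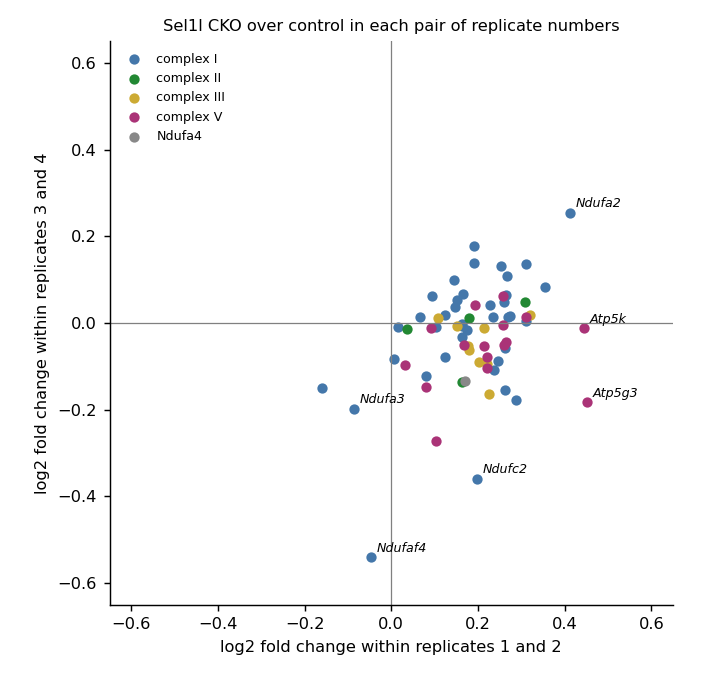
Log2 fold change of Sel1l CKO over control within replicates 1 and 2 (horizontal) against that within replicates 3 and 4 (vertical), 1 point per tested gene, coloured by complex. Of the 69 points, 66 lie to the right of 0 and 28 lie above 0, with Ndufa2 high on both axes and Ndufaf4 lowest on the vertical axis.

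Ndufa2 encodes a small accessory subunit in the hydrophilic arm of complex I. It had 29.4, 32.9, 33.5 and 30.6 RPKM in the controls (replicates 1 to 4) and 42.2, 40.7, 38.3 and 38.2 RPKM in the Sel1l CKO libraries (1 to 4). Every Sel1l CKO library was above every control library, with means of 39.8 ± 1.95 against 31.6 ± 1.91 RPKM (SD, n = 4 each). The log2 fold change was 0.33 ± 0.067 (SE, limma adjusted p = 0.02), which is 126% of the control mean, and it was 0.41 in replicates 1 and 2 alone and 0.25 in replicates 3 and 4 alone. Between 2573 and 4561 reads per library lay behind these values. The call was lost without Sel1l CKO replicate 1 (limma adjusted p = 0.0502), Sel1l CKO replicate 2 (0.0521), control replicate 1 (0.0655) or control replicate 4 (0.0731), in replicates 3 and 4 alone (0.185) and with the replicate number as a block (0.0659), all with a log2 fold change above 0. Its span overlaps that of Tmco6 on the opposite strand, and although the library kit keeps the strand, the strand setting of the read counting is not given in the sources used here, so the reads of both genes may not be separable.

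The 7 core subunits of complex I that are encoded in the nucleus hold the flavin, the iron-sulfur clusters and much of the quinone site. All 7 had a log2 fold change above 0, from 0.023 in Ndufs3 to 0.15 in Ndufv1, with a median of 0.071, and none passed the test. Ndufv1, which binds the flavin and NADH, had 25.8, 25.8, 25.97 and 25.3 RPKM in the controls (replicates 1 to 4) and 31.2, 30.6, 25.5 and 27.6 RPKM in the Sel1l CKO libraries (1 to 4). Its controls spanned less than 1 RPKM, replicates 1, 2 and 4 of Sel1l CKO were above them and replicate 3 was within them, and the log2 fold change was 0.15 ± 0.074 (SE, limma adjusted p = 0.279). Ndufs1, the largest subunit and a carrier of iron-sulfur clusters, had a log2 fold change of 0.12 ± 0.080. Ndufs7 and Ndufs8, which hold the last clusters of the chain, had log2 fold changes of 0.071 ± 0.065 and 0.080 ± 0.078, and Ndufv2 0.054 ± 0.090 (SE). Ndufv2 was 0.26 in replicates 1 and 2 alone and -0.15 in replicates 3 and 4 alone, the widest gap among these core subunits.

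Of the 29 accessory subunits, 27 were tested, 23 of them had a log2 fold change above 0 and the median was 0.10. Accessory subunits surround the core and serve its assembly and stability. Besides Ndufa2, Ndufb9 and Ndufb10 in the membrane arm had every Sel1l CKO library above every control library. Ndufb10 had 42.6, 38.2, 45.5 and 43.8 RPKM in the controls (replicates 1 to 4) and 51.2, 52.1, 46.3 and 48.2 RPKM in the Sel1l CKO libraries (1 to 4). The log2 fold change was 0.22 ± 0.073 (SE, limma adjusted p = 0.132), and replicate 3 of Sel1l CKO was close to the highest control. Ndufb9 had 14.5, 16.6, 16.3 and 15.6 RPKM in the controls (replicates 1 to 4) and 19.2, 17.8, 17.5 and 17.5 RPKM in the Sel1l CKO libraries (1 to 4), with a log2 fold change of 0.19 ± 0.066 (SE, limma adjusted p = 0.145). Its span overlaps that of Gm49356 on the same strand. The lowest fold change among the complex I subunits was that of Ndufa3, a small membrane-arm subunit, which had 25.8, 30.99, 30.3 and 28.97 RPKM in the controls (replicates 1 to 4) and 25.96, 27.4, 27.1 and 24.6 RPKM in the Sel1l CKO libraries (1 to 4). The genotypes overlapped through control replicate 1, and the log2 fold change was -0.14 ± 0.074 (SE, limma adjusted p = 0.315). Ndufa3 was -0.085 in replicates 1 and 2 alone and -0.20 in replicates 3 and 4 alone, the same direction in both sets. Ndufc2, Ndufa7 and Ndufab1, the mitochondrial acyl carrier protein, were the other accessory subunits with a negative fold change.

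Across the 69 tested genes, 5 had every Sel1l CKO library above every control library (Ndufa2, Ndufb9, Ndufb10, Ndufaf7 and Atp5j), against 9.15% of all tested genes. The opposite order was found in 0, against 5.59% of all tested genes. The share of 5 in 69 was thus no larger than that of the table as a whole.

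**Figure D4:**
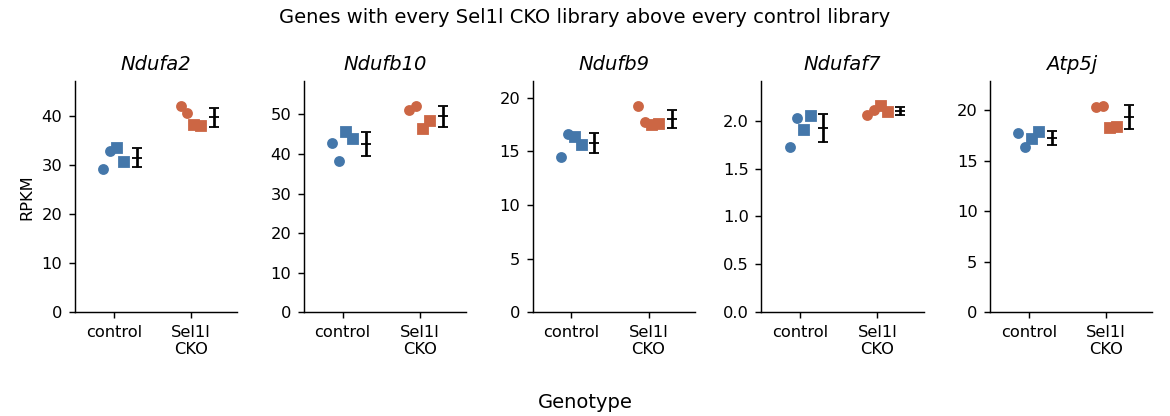
RPKM in the 4 control (blue) and 4 Sel1l CKO (orange) libraries for the 5 genes whose libraries did not overlap, with the mean and SD in black; circles are replicates 1 and 2 and squares replicates 3 and 4. The gap is widest in Ndufa2 (highest control 33.5, lowest Sel1l CKO 38.2) and smallest in Ndufaf7 (highest control 2.05, lowest Sel1l CKO 2.06).

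Complex I assembly factors help to build the complex and are absent from the finished enzyme. Of the 8, 5 passed the expression filter, with a median log2 fold change of 0.0038 and 3 above 0. Ndufaf4, which acts in early steps of assembly, had 4.91, 4.52, 6.41 and 5.06 RPKM in the controls (replicates 1 to 4) and 4.03, 5.15, 3.97 and 3.81 RPKM in the Sel1l CKO libraries (1 to 4). Control replicate 3 was the highest library and Sel1l CKO replicate 2 lay among the controls, and the log2 fold change was -0.29 ± 0.13 (SE, limma unadjusted p = 0.045, adjusted p = 0.227). It was -0.047 in replicates 1 and 2 alone and -0.54 in replicates 3 and 4 alone. Ndufaf1 had a log2 fold change of -0.16 ± 0.090 and was -0.16 in replicates 1 and 2 alone and -0.15 in replicates 3 and 4 alone. At the other end, Ndufaf7, a methyltransferase, had 1.73, 2.03, 1.90 and 2.05 RPKM in the controls (replicates 1 to 4) and 2.06, 2.11, 2.15 and 2.09 RPKM in the Sel1l CKO libraries (1 to 4), and a log2 fold change of 0.12 ± 0.072 (SE, limma adjusted p = 0.370), with the genotypes separated by less than 0.01 RPKM.

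In complex II, all 4 subunits had a log2 fold change above 0 and none passed the test. Sdhc, an anchor subunit in the membrane, had 3.88, 4.43, 4.29 and 4.39 RPKM in the controls (replicates 1 to 4) and 5.26, 5.06, 4.41 and 4.58 RPKM in the Sel1l CKO libraries (1 to 4). Only replicate 3 of the Sel1l CKO libraries lay within the controls, and the log2 fold change was 0.18 ± 0.078 (SE, limma unadjusted p = 0.047, adjusted p = 0.234). Sdha, the flavoprotein that oxidises succinate, had 11.8, 12.2, 11.6 and 11.7 RPKM in the controls (replicates 1 to 4) and 12.3, 12.4, 11.3 and 11.8 RPKM in the Sel1l CKO libraries (1 to 4). These libraries lay close together, and its log2 fold change of 0.012 ± 0.057 (SE) was the smallest of complex II. Sdhb, the iron-sulfur subunit, had a log2 fold change of 0.096 ± 0.068, and Sdhd, the second anchor, one of 0.013 ± 0.092 (SE). Sdhd was 0.16 in replicates 1 and 2 alone and -0.14 in replicates 3 and 4 alone.

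All 9 subunits of complex III had a log2 fold change above 0, with a median of 0.062, and none was at an unadjusted p under 0.05. Within replicates 3 and 4, 2 of the 9 were above 0. Uqcrq, a small subunit, had the largest, with 37.03, 34.2, 34.99 and 37.7 RPKM in the controls (replicates 1 to 4) and 43.7, 45.2, 36.2 and 37.4 RPKM in the Sel1l CKO libraries (1 to 4). Replicates 1 and 2 of Sel1l CKO stood above all controls and replicates 3 and 4 among them, and the log2 fold change was 0.17 ± 0.085 (SE, limma adjusted p = 0.300). The Rieske iron-sulfur protein Uqcrfs1 had the smallest, 0.031 ± 0.089 (SE), and its fold changes were 0.23 in replicates 1 and 2 alone and -0.16 in replicates 3 and 4 alone. Cyc1, the cytochrome c1 that passes electrons to cytochrome c, had 80.4, 82.9, 78.1 and 86.1 RPKM in the controls (replicates 1 to 4) and 87.9, 97.1, 80.1 and 77.1 RPKM in the Sel1l CKO libraries (1 to 4), and a log2 fold change of 0.058 ± 0.081 (SE, limma adjusted p = 0.716). The core proteins Uqcrc1 and Uqcrc2 had log2 fold changes of 0.073 ± 0.065 and 0.062 ± 0.076 (SE).

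Of the 17 complex V genes, 16 were tested, 13 had a log2 fold change above 0 and the median was 0.093. Within replicates 3 and 4, 3 of the 16 were above 0. The catalytic head holds the alpha and beta subunits, Atp5a1 and Atp5b, and the central stalk subunit gamma, Atp5c1, turns within it. Atp5b had 255.75, 254.77, 254.43 and 259.98 RPKM in the controls (replicates 1 to 4) and 312.41, 299.36, 247.79 and 248.69 RPKM in the Sel1l CKO libraries (1 to 4). The 4 controls lay close together, replicates 1 and 2 of Sel1l CKO lay above all of them and replicates 3 and 4 just below all of them, and the log2 fold change was 0.10 ± 0.085 (SE, limma adjusted p = 0.505). Atp5a1 likewise had only replicates 1 and 2 of Sel1l CKO above all controls, with a log2 fold change of 0.081 ± 0.089, and Atp5c1 had one of 0.072 ± 0.078 (SE).

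Atp5g1, Atp5g2 and Atp5g3 all encode subunit c, the protein that forms the rotating ring in the membrane, and differ in their mitochondrial targeting peptides. Atp5g3 had 83.7, 87.5, 95.6 and 101.53 RPKM in the controls (replicates 1 to 4) and 123.64, 110.78, 85.6 and 87.9 RPKM in the Sel1l CKO libraries (1 to 4). Its log2 fold change was 0.13 ± 0.13 (SE, limma adjusted p = 0.567) over all libraries, 0.45 within replicates 1 and 2 and -0.18 within replicates 3 and 4. Atp5g1 had a log2 fold change of 0.16 ± 0.079 and was 0.31 in replicates 1 and 2 alone and 0.014 in replicates 3 and 4 alone. For Atp5g2 it was 0.058 ± 0.075 (SE). On exon length, Atp5g3 and Atp5g2 stood at 121.57 ± 10.6 and 103.00 ± 2.998 RPKM in the controls and Atp5g1 at 40.6 ± 1.23 RPKM (SD, n = 4). That order depends on the length used, as the summed annotated exons are 4912 bases for Atp5g1, 1675 for Atp5g2 and 2181 for Atp5g3. In reads, Atp5g1 had 7785, 9591, 7253 and 7526 in the controls (replicates 1 to 4). Atp5g2 had fewer, 6752, 8476, 6023 and 6619, so a ranking by abundance is uncertain.

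In the rest of complex V, Atp5k, the small subunit e of the membrane part, had the largest fold change, with 57.9, 61.5, 66.97 and 65.6 RPKM in the controls (replicates 1 to 4) and 83.9, 78.7, 68.3 and 63.3 RPKM in the Sel1l CKO libraries (1 to 4). The log2 fold change was 0.22 ± 0.097 (SE, limma adjusted p = 0.244), 0.45 within replicates 1 and 2 and -0.011 within replicates 3 and 4. Atp5j, a subunit of the peripheral stalk that holds the head still, had 17.7, 16.3, 17.1 and 17.9 RPKM in the controls (replicates 1 to 4) and 20.3, 20.4, 18.2 and 18.3 RPKM in the Sel1l CKO libraries (1 to 4). Its libraries did not overlap between genotypes, and the log2 fold change was 0.16 ± 0.066 (SE, limma adjusted p = 0.210). Atp5j overlaps Gabpa on the opposite strand. The lowest was Atp5md, a small membrane subunit, at -0.084 ± 0.13 (SE), and Atp5e and Atp5mpl were the other tested complex V genes below 0.

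Ndufa4 was described as a complex I subunit and is now assigned to complex IV. It had a log2 fold change of 0.017 ± 0.097 (SE, limma adjusted p = 0.938) and was 0.17 in replicates 1 and 2 alone and -0.13 in replicates 3 and 4 alone. Its paralog Ndufa4l2, a hypoxia-responsive gene, was at 0 reads in 7 of the 8 libraries and at 1 read in Sel1l CKO replicate 2.

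After rescaling the recovered reads to the summed length of annotated exons, the catalytic subunits of ATP synthase were the most abundant transcripts of the group. In the controls, Atp5b stood at 430.52 ± 4.30 and Atp5a1 at 379.05 ± 10.7 RPKM on exon length (SD, n = 4), a gap larger than the spread of either. They were followed by Uqcr11 at 174.09 ± 8.63, Atp5h at 170.56 ± 6.83, Uqcr10 at 162.37 ± 9.62 and Uqcrh at 160.2 ± 10.97 RPKM on exon length, where neighbours in this order did not differ beyond their spread. Within complex I, Ndufa2 was at 122.89 ± 7.45 and Ndufb11 at 110.99 ± 6.60 RPKM on exon length, and the core subunits named above ran from 12.8 ± 0.883 in Ndufs1 to 69.8 ± 2.08 in Ndufs8. Among the complex II subunits Sdhd was at 120.87 ± 7.22, Sdha at 80.4 ± 1.75, Sdhb at 74.95 ± 3.36 and Sdhc at 30.6 ± 1.83. Assembly factors ran from 5.46 ± 0.596 in Ndufaf2 to 18.7 ± 2.09 in Ndufaf8 (RPKM on exon length, SD, n = 4). Some complex I subunits lay in or below that range, among them Ndufb2 at 1.47 ± 0.192, Ndufs1, and Ndufab1 at 15.2 ± 0.736. The summed exons of Ndufs1 and Ndufab1 are long, at 8086 and 6883 bases, which lowers their values on this scale.

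The 7 genes under the filter were Atp5o, Ndufb2, Ndufs4, Ndufaf2, Ndufaf5, Ndufaf6 and Ndufa4l2. They were compared by exact two-sided permutation tests of RPKM, 4 libraries against 4, for which the smallest possible p is 0.0286. Ndufaf6 had 0.463, 0.468, 0.517 and 0.515 RPKM in the controls (replicates 1 to 4) and 0.641, 0.606, 0.516 and 0.519 RPKM in the Sel1l CKO libraries (1 to 4), with an exact permutation p of 0.0571. The genotypes overlapped only through control replicate 3 and Sel1l CKO replicate 3. The other 6 had exact permutation p values from 0.114 (Ndufs4) to 1. For Atp5o, the stalk subunit that confers sensitivity to oligomycin, the low RPKM reflects the length used. The values fit a length of 247290 bases, whereas the annotated gene spans 6474. With exons alone Atp5o stood at 110.73 ± 4.02 RPKM in the controls (SD, n = 4) with 6493 to 11896 reads per library. If reads were counted over the longer length, those of other genes may be included, so this level is uncertain. Long lengths also lie behind the low RPKM of Ndufs4 and Ndufaf2, 100300 and 106036 bases, with 2233 to 3826 and 493 to 1084 reads per library. On exon length Ndufs4 stood at 23.5 ± 2.16 RPKM in the controls (SD, n = 4). Ndufb2 had 236 to 403 reads per library and overlaps Gm42420 on the same strand, so its level is uncertain. In all, 4 of the 76 genes overlap another protein-coding gene on the same strand and 20 more overlap one on the other strand.

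Promoters of respiratory genes are known for binding sites of the factors NRF1, GABPA (an ETS factor) and YY1. RefSeq promoters (GRCm38.p6, 250 bases before to 50 after each start) were found by symbol for 63 of the 76 genes and searched on both strands for GCATGCGC (NRF1), CCGGAAG (ETS) and AANATGGC (YY1). The NRF1 word was present in 11 (17.5%), against 2.71% of all 32851 promoters in the table and 5.07% of the genes measured here. The ETS word was present in 16 (25.4%), against 8.86% and 16.7%, and the YY1 word in 18 (28.6%), against 6.05% and 8.57%. At least 1 of the words was present in 38 of the 63 (60.3%), against 16.1% of all promoters and 26.8% of the genes measured here. No member had words of different kinds that shared bases, while the NRF1 word and its reverse complement can overlap each other. Upstream stretches of 70 bases show an NRF1 word in complex I and in complex V, an ETS word and a YY1 word as examples. They come from genes whose word lies wholly before both the RefSeq and the GENCODE start. In the more abundant Atp5b, Atp5k, Atp5g2 and Ndufa8, no such stretch before both starts held the word searched for. The words are in capitals, 5′ to 3′ on the gene's strand.
Ndufa11, chr17:56717671-56717740, plus strand: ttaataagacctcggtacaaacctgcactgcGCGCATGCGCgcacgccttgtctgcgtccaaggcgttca
Atp5l, chr9:44920923-44920992, minus strand: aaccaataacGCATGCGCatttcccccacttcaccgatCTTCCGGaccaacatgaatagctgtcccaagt
Uqcr11, chr10:80406849-80406918, minus strand: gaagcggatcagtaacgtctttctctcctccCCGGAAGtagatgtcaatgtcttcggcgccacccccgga
Ndufb11, chrX:20617792-20617861, minus strand: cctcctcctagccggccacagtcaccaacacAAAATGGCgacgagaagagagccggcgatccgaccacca
Ndufa11 has overlapping NRF1 words on both strands, Atp5l an NRF1 and an ETS word in the reverse orientation, Uqcr11 an ETS word and Ndufb11 a YY1 word. The median log2 fold change was 0.094 in the 10 tested genes with the NRF1 word and 0.079 in the 48 without it, 0.080 in the 16 with the ETS word and 0.079 in the 42 without it, and 0.080 in the 17 with the YY1 word and 0.073 in the 41 without it. A match describes letters in the window and does not show that a factor binds there.

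The genes with roles around these complexes were read from the same fit. None of the 10 genes of complexes I, III and V examined in the mitochondrial genome passed the test, and with the replicate number as a block 1 of them did (mt-Atp8, limma adjusted p = 0.038). All 10 had a negative log2 fold change, with a median of -0.38, the opposite sign to the median of the nuclear genes, and the largest was that of mt-Atp8 at -0.99 ± 0.40 (SE, limma adjusted p = 0.202). mt-Cytb, the mitochondrially encoded subunit of complex III, had 1936.60, 2002.70, 3346.79 and 2048.67 RPKM in the controls (replicates 1 to 4) and 1625.12, 1827.58, 1951.05 and 1645.63 RPKM in the Sel1l CKO libraries (1 to 4). Control replicate 3 stood above all other libraries, and over the 10 genes its median difference from the control mean was 0.66. Without control replicate 3 the median of the 10 was -0.16 and 9 were below 0. The medians were -0.18 in replicates 1 and 2 alone and -0.68 in replicates 3 and 4 alone. Several of these genes overlap on the mitochondrial genome and have copies in nuclear DNA, so reads may be lost or shared among them.

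The ubiquitous subunits of complex IV followed the nuclear genes of the other complexes. Of 10, 9 had a log2 fold change above 0 and none passed the test, with a median of 0.054 (0.17 in replicates 1 and 2 alone and -0.075 in replicates 3 and 4 alone). Cox7b had the largest, 0.31 ± 0.089 (SE, limma adjusted p = 0.086). None of 14 tested genes of the tricarboxylic acid cycle and pyruvate dehydrogenase passed the test, with 11 above 0 and a median of 0.060. Citrate synthase (Cs) had 12.4, 12.5, 11.9 and 12.7 RPKM in the controls (replicates 1 to 4) and 15.96, 15.3, 13.3 and 13.2 RPKM in the Sel1l CKO libraries (1 to 4), with a log2 fold change of 0.22 ± 0.077 (SE, limma adjusted p = 0.154). None of 10 tested electron carriers and ubiquinone synthesis genes passed the test either, with 8 above 0 and a median of 0.077. Among them, cytochrome c (Cycs) had a log2 fold change of 0.26 ± 0.11 (SE, limma adjusted p = 0.228) and was 0.50 in replicates 1 and 2 alone and 0.027 in replicates 3 and 4 alone. Of 16 tested assembly and regulatory factors, among them the respiratory gene Atp5md, 11 were above 0 with a median of 0.074, and of 8 tested regulators of mitochondrial gene expression, 6 were above 0 with a median of 0.069. None of either list passed the test. Gabpa and Yy1 had log2 fold changes of 0.073 ± 0.068 and 0.026 ± 0.072 (SE), and Nrf1 was under the filter, at 0.978 ± 0.0519 RPKM in controls against 1.01 ± 0.115 RPKM after deletion (SD, n = 4 each). The length behind the Nrf1 values is 105471 bases, and Nrf1 had 3205 to 5212 reads per library. Subunits of the mitochondrial ribosome (Mrpl and Mrps names), a group added after the values had been seen, had 3 of 71 called higher, a share near the 4.27% of all tested genes, and a median of 0.11.

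Like those of the respiratory genes, the medians of proliferation genes were above the controls in Sel1l CKO replicates 1 and 2 and not in replicates 3 and 4. Of 16, none passed the test, 14 were above 0 and the median was 0.17, with 0.36 in replicates 1 and 2 alone and -0.020 in replicates 3 and 4 alone. Within replicates 1 and 2, 7 of the 16 were called higher (lowest limma adjusted p = 0.020), against 4.58% of all tested genes. That set had been seen to stand apart before, so these are not calls for the genotype. The median over all libraries fell to 0.082 without Sel1l CKO replicate 1, 0.086 without Sel1l CKO replicate 2 and 0.082 without control replicate 3. With array weights it was -0.066 and 3 of the 16 were above 0. Relative to the control mean, the median of the 16 was 0.34, 0.39, -0.092 and -0.12 in Sel1l CKO replicates 1 to 4. Their summed level ran from 456 to 565 RPKM in controls and from 474 to 679 RPKM in Sel1l CKO, with no gene of the list at 0. Rrm2, a subunit of ribonucleotide reductase, had 46.6, 45.4, 37.9 and 46.7 RPKM in the controls (replicates 1 to 4) and 64.1, 65.6, 40.2 and 40.4 RPKM in the Sel1l CKO libraries (1 to 4). The part of proliferation and of Sel1l level in the difference between the libraries was not tested, and a change in RNA per cell cannot be told apart from a change in the mix of cells in these bulk samples.

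**Figure D5:**
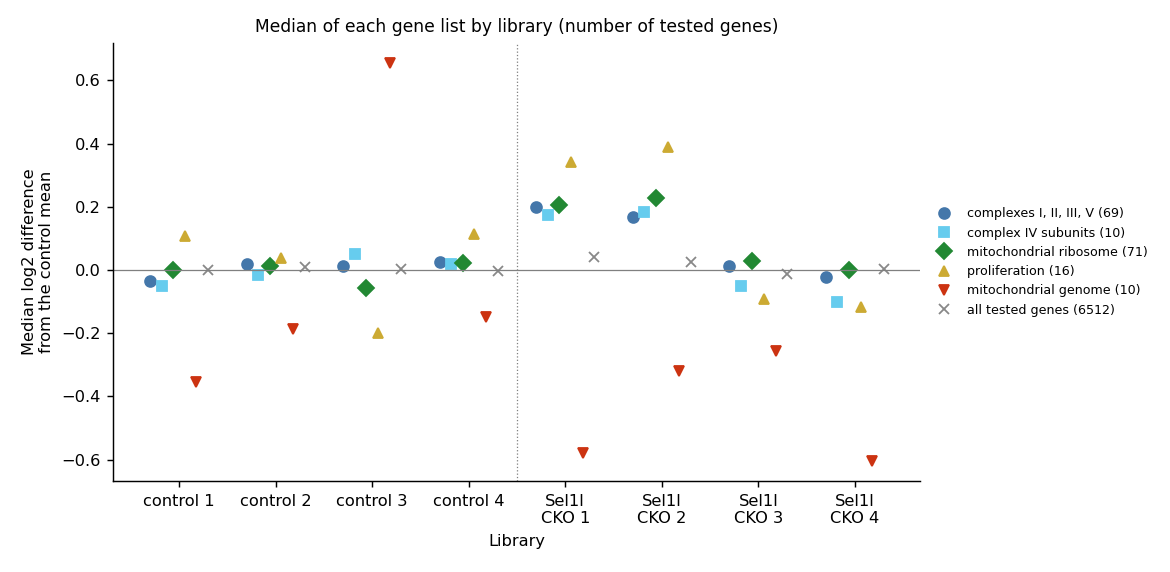
Median log2 difference from the control mean over the tested genes of each list, in each of the 8 libraries (number of genes in the legend). In Sel1l CKO replicates 1 and 2, the respiratory genes, complex IV, the mitochondrial ribosome and proliferation lie above 0 and the mitochondrial genome below it, and the mitochondrial genome is highest in control replicate 3 (0.66).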

How the data were processed

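RNA of sorted DN3 thymocytes was sequenced from 4 control and 4 Sel1l CKO libraries, grouped by the genotype in the labels. According to the study's methods and the submitters' processing notes, strand-specific mRNA libraries were read from both ends, STAR 2.5.2b aligned the reads to GRCm38, and HTSeq 2.7 counted those on protein-coding genes. The authors deposited the result as RPKM values and used DESeq2 on their counts, which were not used here. Every library column of the table was used.

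RPKM values were transformed to log2(RPKM + 0.1). Genes with a mean of at least 1 RPKM were tested in R 4.3.3 with limma 3.58.1, using its moderated test with a trend in the variance, two-sided, and no term other than genotype. The Benjamini-Hochberg adjustment was made over all 6512 genes. A fold change on this scale is slightly smaller than the true one for weakly expressed genes. Genes under the filter were compared by exact permutation over the 70 assignments of 8 libraries. Reads recovered from the RPKM steps were whole within 0.02 of a read for 11782 genes with the annotated span of GENCODE M21 (GRCm38) and for 4074 genes with a length solved from the values, among them 52 and 24 of the respiratory genes. They add up to between 95.83% and 99.19% of the library totals. limma voom was run on genes with a mean of at least 10 recovered reads. Coordinates are 1-based. Python 3.11.15 with pandas 2.3.3, numpy 2.4.6 and matplotlib 3.10.9 was used for the rest. The fits were tested on simulated data whose changes were larger than any fold change of the respiratory genes, with no sets among the libraries. That test therefore does not cover differences as small as those reported here.

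The genes and lists were chosen with earlier results of these data known. The genes named are the catalytic and core subunits, those past the test, those whose libraries did not overlap, the highest and lowest fold change of each complex and of the assembly factors, and those under the filter. Values of 1 gene that this rule names are not reported here. Genes of the other lists, and members named for a negative fold change or for their level, were picked after their values were seen. The alternatives were pseudocounts of 1 and 0.01, other filters and scalings, no trend, array weights, a replicate block, a batch term, each set of replicates, voom and leaving out each library in turn. Deeper libraries give more precise values, and for genes with many reads the spread between libraries, not the depth, sets the error.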

Additional observations from a re-analysis of the deposited data

Results flagged for a closer look

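In 150 groups of 4 libraries (75 genes in both genotypes, each with reads in every library), 4 held a library whose gap to its neighbour passed Dixon's limit for 4 values, where about 7.5 would be picked by chance at 1 in 20. Ndufb9 in Sel1l CKO replicate 1 was at 19.2 RPKM, and the other Sel1l CKO libraries were between 17.5 and 17.8 RPKM. Ndufs4, an accessory subunit needed for the stability of complex I, was at 0.757 RPKM in Sel1l CKO replicate 2, against 0.677 to 0.685 RPKM in the others. Ndufs5 was at 7.06 RPKM in control replicate 2, against 6.19 to 6.31 RPKM in the other controls. Ndufaf4 was at 5.15 RPKM in Sel1l CKO replicate 2, against 3.81 to 4.03 RPKM in the other Sel1l CKO libraries.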

How the results depend on the processing

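In 22 alternatives, the count of respiratory genes called lower stayed at 0. Ndufa2 had a log2 fold change from 0.25 to 0.41 and a limma adjusted p from 0.0065 to 0.185, and kept an adjusted p under 0.05 in 16 of the 22. The count called higher was 1 as reported and in 15 alternatives, 3 in replicates 1 and 2 alone, and 0 in replicates 3 and 4 alone, with the replicate block and without control replicate 1, control replicate 4, Sel1l CKO replicate 1 or Sel1l CKO replicate 2, a range of 0 to 1 over the fits that leave out a library. Among the fits that leave out a library, the median over the respiratory genes ran from 0.044 without Sel1l CKO replicate 1 to 0.13 without Sel1l CKO replicate 4. With array weights the median was -0.010 for complex V. In replicates 1 and 2 alone the median was 0.19 for all respiratory genes, 0.19 for complex I, 0.17 for complex II, 0.20 for complex III and 0.22 for complex V. In replicates 3 and 4 alone the median was -0.010 for all respiratory genes, -0.053 for complex III and -0.051 for complex V. Quantile normalization and array weights gave medians over all respiratory genes of 0.031 and 0.025, with 47 and 43 of 69 above 0, and array weights gave Sel1l CKO replicates 1 and 2 the lowest weights (0.337 and 0.291). 

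The sign of the log2 fold change turned in these genes. With array weights it was -0.025 for Atp5a1, -0.011 for Atp5b, -0.020 for Atp5g2, -0.033 for Atp5g3, -0.036 for Cyc1, -0.015 for Ndufv2, -0.034 for Sdha, -0.086 for Sdhd, -0.031 for Uqcrc2 and -0.070 for Uqcrfs1. With quantile normalization it was -0.014 for Atp5g2, -0.022 for Ndufs3, -0.048 for Sdha, -0.052 for Sdhd and -0.048 for Uqcrfs1. In replicates 1 and 2 alone it was 0.10 for Atp5md. In replicates 3 and 4 alone it was -0.053 for Atp5a1, -0.051 for Atp5b, -0.077 for Atp5c1, -0.052 for Atp5g2, -0.18 for Atp5g3, -0.011 for Atp5k, -0.062 for Cyc1, -0.078 for Ndufs3, -0.0030 for Ndufs8, -0.15 for Ndufv2, -0.013 for Sdha, -0.14 for Sdhd, -0.0069 for Uqcrc1, -0.053 for Uqcrc2 and -0.16 for Uqcrfs1. Over the fits that leave out a library it spanned -0.00062 to 0.093 for Atp5g2, -0.0049 to 0.039 for Sdha, -0.051 to 0.070 for Sdhd, -0.030 to 0.089 for Uqcrfs1, -0.0044 to 0.11 for Cyc1, -0.00075 to 0.11 for Ndufv2 and -0.011 to 0.070 for Ndufs3. The negative values came without Sel1l CKO replicate 1 (Atp5g2, Sdha, Sdhd and Uqcrfs1), Sel1l CKO replicate 2 (Cyc1, Sdha, Sdhd and Uqcrfs1), control replicate 1 (Ndufv2 and Sdhd) or control replicate 2 (Ndufs3). None of these genes passed the test as reported, and the cause was not tested. 

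With the replicate number as a block, the count called higher was 0 and the Ndufa2 log2 fold change was 0.33. Deviations of same-numbered libraries from their group means correlated over genes at 0.162, 0.097, 0.445 and 0.005, and not every library correlated best with its own number. These correlations cannot decide whether the numbers pair the libraries. For control replicates 1, 2 and 3 the correlations went with the sets more than with single numbers, and for control replicate 4 they did not. Deviations from a group mean cancel out over the 4 libraries of a genotype, so positive correlations with some libraries force negative ones with others. Opposite signs between the sets are therefore partly fixed in advance. Control replicates 1 and 2 correlated with Sel1l CKO replicates 1 and 2 at 0.097 to 0.292 and with replicates 3 and 4 at -0.25 to -0.22, whereas control replicate 3 correlated with Sel1l CKO replicates 3 and 4 at 0.445 and 0.404 and with replicates 1 and 2 at -0.376 and -0.359, and control replicate 4 stayed between -0.083 and 0.087 with all 4. Over all genes, 344 passed the test as reported, 640 with array weights, 525 with the batch term and 585 in replicates 1 and 2 alone, and the share of higher calls was 80.8% as reported, 65.3% with the batch term, 67.9% with voom and 50.9% in replicates 1 and 2 alone. With 4 libraries per genotype and a median SE of 0.079, differences near 0.08 on the log2 scale were not detectable for single genes.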
